A study of Mus musculus with 2 samples.

Results

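The 3 features described here detect the mature mouse microRNAs miR-378-3p (MIMAT0003151), miR-378-5p (MIMAT0000742) and miR-224-5p (MIMAT0000671), out of 739 features on a microRNA array. miR-378-3p and miR-224-5p were chosen by their measured difference between the genotypes: they had the largest log2 intensity in NOX1-deficient over wild-type cells among the brighter features. Brighter means a mean log2 intensity no lower than the median of the 472 features that were measured on both arrays. miR-378-5p is the other arm of the miR-378 hairpin and was included for that reason. Because the difference between the genotypes chose 2 of the 3 members, the differences below are descriptions and were not tested. The names of the 3 members came with the rule that lists their accessions.

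The arrays profiled cultured pulmonary arterial smooth muscle cells, which form the contractile layer of the lung's arteries. One array held RNA from wild-type cells and the other from cells deficient in NOX1, per the labels. Each genotype was represented by cells of its own 3 male mice on the C57BL/6 background, used at passage 3 after 24 hours in DMEM/F-12 medium with 10% FBS. The title of the NOX1-deficient sample names its mice as KO, that is knockout. The sources used here do not give how the knockout was made, the age of the mice or whether their RNA was pooled. With 1 array per genotype there is no replicate error, no test and no p-value for any difference. A difference in intensity also cannot separate fewer cells that express a microRNA from less of it per cell.

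MicroRNAs are short RNAs that guide Argonaute proteins to partly complementary messenger RNAs, mainly through the seed near their 5′ end. A hairpin precursor can yield a mature microRNA from each arm, named 5p and 3p, and the arms have different seeds and therefore different targets. NOX1 is a catalytic subunit of the NADPH oxidases, which make superoxide, and vascular smooth muscle is among the cells in which it has been studied.

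miR-224-5p lies on the minus strand of the mouse X chromosome. Its sequence and those of its neighbours are shown because the array measured the 5p product of a locus that can give 4 mature microRNAs. The RefSeq sequences on GRCm38.p6 are printed 5′ to 3′ with the seed, bases 2 to 8, in capitals. For the hairpin the capitals mark the 5p and then the 3p product.
mmu-miR-224-5p: uAAGUCACuagugguuccguu
mmu-miR-224-3p: aAAUGGUGcccuagugacuaca
mmu-miR-452-5p: uGUUUGCAgaggaaacugagac
mmu-miR-452-3p: uCAGUCUCaucugcaaagaggu
Mir224 hairpin: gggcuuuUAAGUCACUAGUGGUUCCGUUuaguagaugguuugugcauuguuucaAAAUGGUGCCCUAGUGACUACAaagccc

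The miR-224 hairpin of 82 bases spans chrX:72261031-72261112, and the mature 5p strand of 21 bases spans chrX:72261085-72261105. Both lie within Gabre (chrX:72256926-72274828, minus strand), which encodes the epsilon subunit of the GABA type A receptor. The miR-452 hairpin (chrX:72262224-72262308) lies in the same gene, 1111 bases away. Exon positions were not used here, so whether the hairpins are intronic was not determined. Among the 1679 mature mouse microRNAs in the RefSeq table, miR-224-5p was the 1 carrying the seed AAGUCAC. In mouse ovarian granulosa cells, miR-224 is known as a TGF-beta-responsive microRNA that represses Smad4, a mediator of TGF-beta signalling. Nox1 lies on the same chromosome (chrX:134086421-134137711), 61.8 Mb from Mir224. The intensities of the features for miR-224-3p and for the miR-452 arms are not described, since the sources used here pair no name with features other than the 3 members.

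On the wild-type array miR-224-5p had an intensity of 4.60 units, and on the NOX1-deficient array it had 7.21 units. The intensity was thus higher without NOX1 by 2.61 units, or 1.57-fold, a log2 difference of 0.65. Units are arbitrary and linear. The wild-type value was 4.79 times the lowest intensity listed on its array, and the NOX1-deficient value was 7.75 times the lowest on its own. In brightness the feature stood at place 234 of the 546 listed on the wild-type array and at place 181 of the 525 listed on the NOX1-deficient array.

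The miR-378 hairpin is encoded within Ppargc1b, the gene of PGC-1 beta, a transcriptional coactivator of mitochondrial and lipid metabolism genes. In RefSeq, Mir378a and Ppargc1b lie on chromosome 18, at positions 61397835 to 61397900 and 61291445 to 61400756. Both arms are known as regulators of energy metabolism in mice. In mouse, Crat, which encodes carnitine acetyltransferase, has been reported as a target of the 3p arm and Med13, which encodes a Mediator subunit, as a target of the 5p arm.

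The 2 arms of miR-378 differed in opposite directions. The miR-378-3p feature had 5.01 units on the wild-type array and 8.60 units on the NOX1-deficient array. It was higher without NOX1 by 3.59 units, or 1.72-fold, a log2 difference of 0.78. The values were 5.22 and 9.25 times the lowest intensity on their arrays. This feature stood at place 219 in brightness on the wild-type array and at place 167 on the NOX1-deficient array.

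The miR-378-5p feature had 2.30 units on the wild-type array and 1.39 units on the NOX1-deficient array. It was 1.65-fold lower without NOX1, a difference of -0.91 units and of -0.73 on the log2 scale. Here the values were only 2.40 and 1.49 times the lowest intensity listed. The feature stood at place 333 on the wild-type array and at place 438 on the NOX1-deficient array. Its mean intensity of 1.79 units put it at place 381 of 472 and below the brightness threshold. Intensities of different probes are not comparable as amounts, so which arm was the more abundant was not determined.

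**Figure D1:**
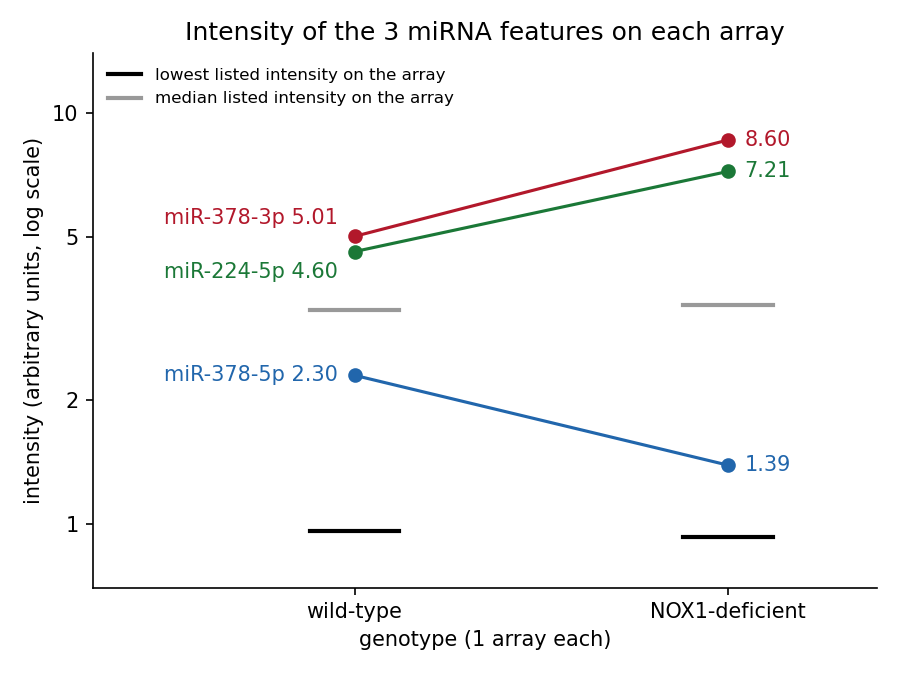
Intensity (arbitrary units, log scale) of the 3 features on the wild-type and the NOX1-deficient array, 1 point per array, with black bars at the lowest (0.96 and 0.93 units) and grey bars at the median (3.31 and 3.42 units) listed intensity. The lines of miR-378-3p (5.01 to 8.60) and miR-224-5p (4.60 to 7.21) slope up and that of miR-378-5p (2.30 to 1.39) slopes down towards the lowest listed value; heights of different features are not comparable as amounts.

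The arrays as a whole set the scale for these values. Intensities listed on the wild-type array ran from 0.96 to 51870 units and those on the NOX1-deficient array from 0.93 to 51059 units. Most were low: 71.2% of the wild-type and 69.9% of the NOX1-deficient intensities were below 10 units, as were all 6 values of the 3 members. The table lists 193 and 214 values as null, and what a null stands for is not stated. Over the 472 features measured on both arrays, the log2 differences had a median of 0.004 and an SD across features of 0.37. The features are microRNAs, so none of them could show the loss of Nox1, a protein-coding gene. The identity of the cells was not checked, since the remaining features have no names here.

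Among the 236 brighter features, miR-378-3p ranked 1 and miR-224-5p ranked 2 by log2 difference, which is how they were selected. A ratio of 1.5-fold, 0.585 on the log2 scale, was reached by 3 of the 236 (1.27%) in the direction of higher intensity without NOX1 and by 4 (1.69%) in the direction of lower intensity. These shares are given as background, since the members were taken from that end of the distribution. The feature at rank 3 went from 6.54 units with NOX1 to 9.85 units without it, a log2 difference of 0.59. The feature at rank 4 read 88.6 and 130.8 units, a log2 difference of 0.56. miR-224-5p was therefore 0.06 above the next feature on the log2 scale, a smaller step than the 0.13 that separated it from miR-378-3p.

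The 2 selected features were also dim. By mean intensity, 6.56 units for miR-378-3p and 5.76 units for miR-224-5p, they stood at places 182 and 193 of 472. At the brightness threshold, the feature just inside had a mean of 4.44 units (5.14 in wild-type, 3.83 in NOX1-deficient cells) and the one just outside had 4.43 units (5.54 and 3.54). When brightness was judged on wild-type cells alone, with a median of 4.555 units, miR-224-5p passed at 4.60 units and miR-378-3p also passed. Any feature that passed this filter and was higher without NOX1 had also passed the first one. Ranks 1 and 2 of these members were therefore fixed once they passed and are no finding.

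**Figure D2:**
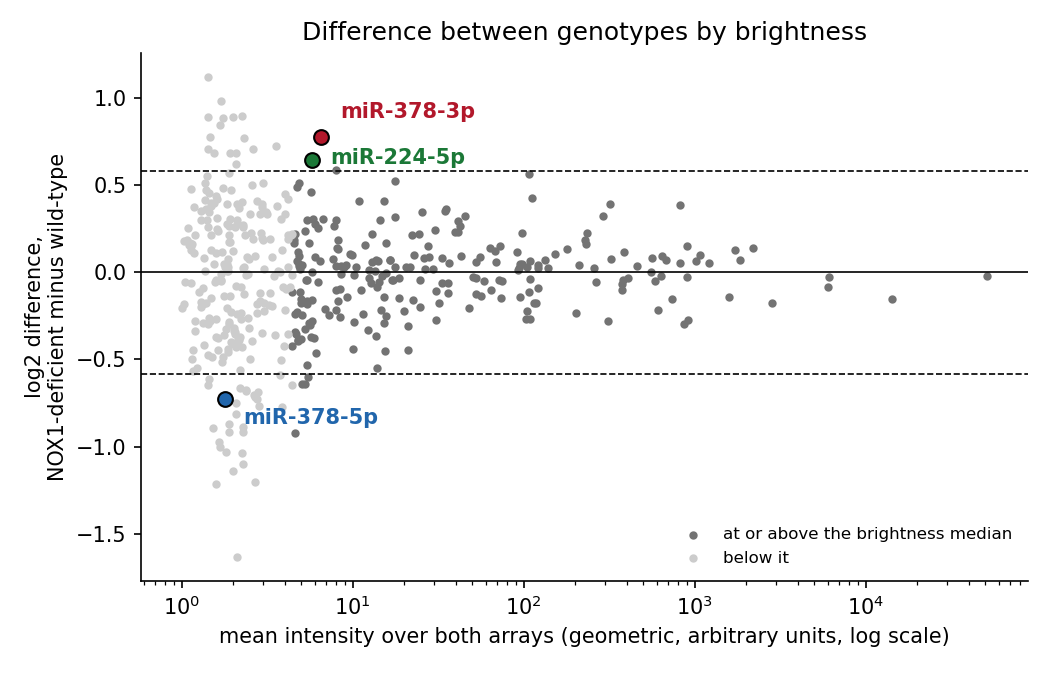
Log2 difference, NOX1-deficient minus wild-type, of the 472 features measured on both arrays against their mean intensity (geometric, arbitrary units, log scale), with dashed lines at 1.5-fold. Dark points are the 236 brighter features; miR-378-3p at 0.78 and miR-224-5p at 0.65 sit at the top and the dim edge of these, while miR-378-5p at -0.73 lies among dimmer features, whose differences spread more widely.

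Dimmer features held larger differences. Over all 472 features, miR-378-3p ranked 8 and miR-224-5p ranked 17 by log2 difference. The 7 features ahead of miR-378-3p were all below the brightness threshold, with mean intensities from 1.42 to 2.26 units and log2 differences from 0.85 to 1.12. Of the 472, 19 (4.03%) reached 1.5-fold in the direction of miR-378-3p and miR-224-5p, and 34 (7.20%) reached it in the direction of miR-378-5p.

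For miR-378-5p the surroundings were broader still. Among the 236 features below the threshold, 1.5-fold was reached by 16 (6.78%) in the higher direction and by 30 (12.7%) in the lower direction. miR-378-5p was 1 of those 30. Over all features 20 had a lower log2 difference, of which 19 were below the threshold, and these reached -1.63.

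Each member was set beside the 100 features nearest to it in mean intensity, 50 on either side. Around miR-378-3p these features had means from 4.56 to 15.2 units, and their log2 differences had a median of -0.04 and an SD of 0.29. All 100 were brighter features, among which miR-378-3p was selected as rank 1, so its place above them was fixed by the rule and is no finding. The highest of the 100, at 0.65, was miR-224-5p, and 1 of the 100 lay as far or farther below 0 as miR-378-3p lay above it. Around miR-224-5p the means ran from 4.19 to 13.6 units, the median difference was -0.01 and the SD was 0.29. Of these 100, 93 were brighter features, so the place of miR-224-5p, with 1 feature (miR-378-3p) above it, was also largely set by the rule.

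Around miR-378-5p the means ran from 1.42 to 2.12 units, and the log2 differences had a median of -0.0004 and an SD of 0.53. A lower difference was found in 11 of the 100 and a difference of at least the same size in either direction in 18. These SDs are those of other microRNAs between the same pair of arrays, so they hold measurement error and any true differences together and are no replicate error.

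**Figure D3:**
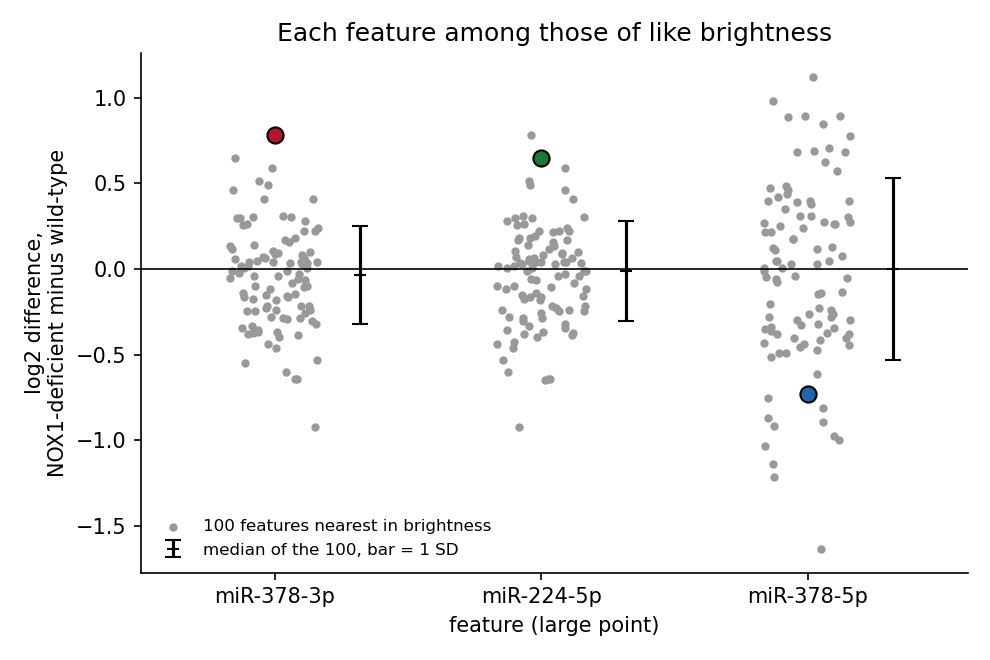
Log2 difference, NOX1-deficient minus wild-type, of each member (large point) and of the 100 features nearest to it in mean intensity (grey points), with the median of the 100 and a bar of 1 SD. The top places of miR-378-3p and miR-224-5p follow from their selection as the largest differences among brighter features, which make up 100 and 93 of their neighbours; 11 of the 100 neighbours of miR-378-5p lie below it.

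The 3 differences kept their direction under other scalings of the arrays. Each scaling moved them by little against their size, so this is a weak check of direction. Under median centring, quantile normalization and a loess curve, miR-378-3p had log2 differences of 0.88, 0.82 and 0.81, and miR-224-5p had 0.74, 0.64 and 0.68. Those of miR-378-5p were -0.63, -0.65 and -0.69. What was added to or taken from the intensities mattered more, because all of them were low. With 5 units added before taking logs, the log2 differences were 0.44 for miR-378-3p, 0.35 for miR-224-5p and -0.19 for miR-378-5p, all inside 1.5-fold. With the lowest listed intensity of each array subtracted, a setting added after the data were seen, they were 0.92, 0.79 and -1.54. The sign of each member was the same in all 7 alternatives, of which the 3 added constants (1, 5 and 50 units) cannot turn a sign. The fixed shift of median centring was too small to turn one. So was the gap between the subtracted values, 0.96 units for wild-type and 0.93 units for NOX1-deficient cells.

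**Figure D4:**
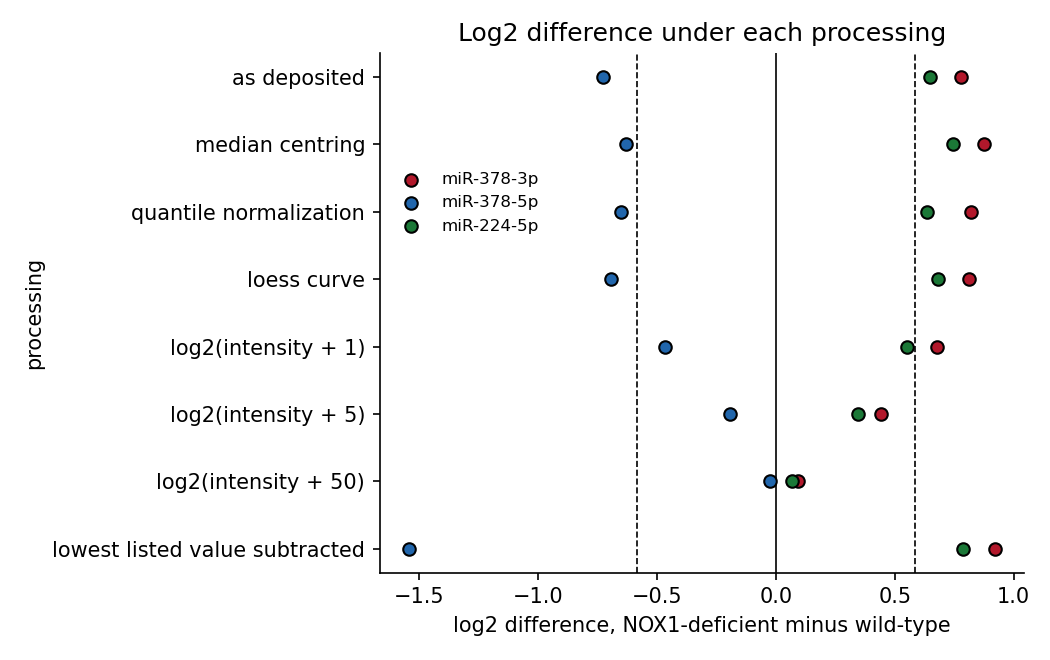
Log2 difference, NOX1-deficient minus wild-type, of the 3 features as deposited and under each of the 7 alternatives, with dashed lines at 1.5-fold. miR-378-3p and miR-224-5p stay to the right of 0 and miR-378-5p to the left, and added constants of 5 and 50 units bring all 3 inside the dashed lines.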

How the data were processed

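The authors deposited 1 intensity per feature and array, on a linear scale judged from the values. Per the labels' protocols, the RNA was extracted by miRNeasy kit and its label was Hy5 from the miRCURY kit. The sources used here state neither the scanner nor the background correction, the normalization or the meaning of a null. Log2 differences were computed from the deposited intensities with no pseudocount, over the 472 features that both arrays list. The 3 members and all lists were chosen with earlier results of these data known.

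The rule for named microRNAs took the members, their hairpin and seed relatives, neighbours in rank and several lists (mitochondrial, TGF-beta, redox and X-chromosome microRNAs, and cell type markers). None of the lists was evaluated, since the sources pair no names with other accessions. Matched by the names used here, 1 of the 3 members had a mature sequence in the RefSeq tables (GRCm38.p6).

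The loess span was 0.4. The computation was checked on simulated data. The planted differences were larger than those of the members, and the noise was smaller than the spread across features here. The check therefore covers the code and not the reliability of the differences described. Precision is limited by the number of arrays, 1 per genotype. Alternatives were other scalings, added constants, other brightness filters and filled nulls. Python 3.11.15, numpy 2.4.6, pandas 2.3.3, statsmodels 0.14.6 and matplotlib 3.10.9 were used.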

Additional observations from a re-analysis of the deposited data

How the results depend on the processing

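Each log2 difference had the same sign in all 7 alternatives, with sizes from 0.0912 to 0.92 for miR-378-3p, from 0.0674 to 0.79 for miR-224-5p and from -0.0253 to -1.54 for miR-378-5p. Adding a constant before taking logs shrinks ratios by construction and cannot turn a sign. Given the sizes of these differences, median centring and subtracting the lowest listed intensity could not turn one either. Quantile normalization and the loess curve also moved the differences by little against their size. With 1 unit added, miR-224-5p (0.55) and miR-378-5p (-0.47) lay inside 1.5-fold. With 5 units all 3 did (0.44 for miR-378-3p, 0.35 for miR-224-5p and -0.19 for miR-378-5p), and with 50 units they were 0.0912, 0.0674 and -0.0253. By rise among the brighter features, the ranks of miR-378-3p and miR-224-5p were 2 and 8 with 5 units added and 26 and 42 with 50 units. Without the brightness filter they were 8 and 17, and with nulls filled with the lowest intensity of their array they were 15 and 29 of 739. miR-378-5p lies below the filter, so its rank by rise, 452 of 472, is over all features. It was 90 of 101 among those nearest in brightness and 700 of 739 with nulls filled.

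The counts past 1.5-fold, 3 in the higher and 4 in the lower direction, became 7 and 1 under median centring, which moves every difference by 0.10 and takes the median of the 472 differences off 0. They became 1 and 1 with 1 unit added, 0 and 0 with 5 or 50 units added and in the brightest quartile, and 19 and 34 without the filter. With nulls filled they were 34 and 60. Quantile normalization gave 2 higher and 4 lower, and the loess curve gave 3 and 3. Filtering on wild-type cells alone gave 3 higher and 7 lower. Subtracting the lowest listed value, chosen after seeing the data, gave 5 higher and 6 lower. A filter on wild-type cells favours features that are lower without NOX1, and subtracting nearly equal values widens such ratios, both by construction. No paired analysis was possible because there is a single array of wild-type and of NOX1-deficient cells, and no replicate could be left out. How far signal over background limits these dim features is unknown.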
